A study of Selenicereus undatus with 4 samples.

Results

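Splicing removes introns from precursor RNA, and 27 of the 11051 unigenes in the NL and L2 table carried an annotation that names it. A unigene was taken when its description contained splicing, pre-mRNA, serine/arginine-rich, small nuclear ribonucleoprotein or spliceosome. The 27 unigenes were 4 SR proteins, 20 core spliceosome genes and 3 genes for other kinds of splicing, which the wording of the rule also picked up. Counted as core genes were 7 Sm proteins, 5 proteins of single snRNPs, 7 helicases or second-step factors and 1 further regulator, SREK1. SREK1 is known in humans to act on SR proteins and was not assigned to the KEGG pathway spliceosome. The core counts and medians below include it. The plants were one-year-old 'Jindu No.1' red-fleshed pitaya, a cactus, and the tissue was taken around the thorn seat of the stem. The deposited data name the species as Selenicereus undatus, whereas the study's paper names it as Hylocereus polyrhizus. NL plants had no supplementary light and did not flower, whereas L2 plants had light added at night and were sampled 1 week after the flower bud stage. Both stages shared the cultivar, the age and the field management, and they differ in light and in bud development at once, which cannot be told apart. Each stage is 1 GEO sample with 3 libraries, which the study's methods describe as biological replicates that each pooled several plants. L0 and L1, the lit stages before and at the bud, were not analysed here.

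Most plant genes hold introns, and the spliceosome cuts them out in a pair of chemical steps. It is built on every intron from small nuclear ribonucleoproteins (snRNPs), most of which are an RNA carrying a ring of Sm proteins and proteins of their own. SR proteins bind exons through RNA recognition motifs and recruit the snRNPs through domains rich in arginine and serine, so that their amounts can shift the choice of splice site. In plants the precursor RNAs of SR proteins are themselves spliced in several forms that respond to light and temperature.

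The values are RPKM (reads on a unigene, divided by its length in kilobases and by the library total in megareads), which allow levels to be compared between genes. The libraries held 3860701 to 7533457 reads, and 1 read on a unigene of 1 kb equalled 0.133 to 0.259 RPKM. The authors listed only genes that they had called different between these libraries, so every unigene of the table had to differ, and a splicing gene outside it is not shown to be unchanged. In this table all 22 markers of green stem tissue were lower in L2 (summed RPKM 3775 to 4669 in NL and 648 to 1544 in L2). Of 23 markers of dividing cells 22 were higher in L2 (288 to 390 in NL and 787 to 1353 in L2), and of 11 flower organ markers 10 were higher (18.7 to 32.0 in NL and 180 to 273 in L2). Of 9 shoot meristem markers 5 were higher and 4 lower, and their summed RPKM was 327 to 409 in NL and 133 to 171 in L2. These marker levels moved with the stage, their part in the values below was not tested, and in bulk tissue fewer cells of a type cannot be told apart from less RNA per cell.

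Between NL and L2, 19 of the 27 unigenes rose, as did 63.0% of all listed genes, and 8 fell, as did 36.3%. Each of them passed an adjusted p of 0.05 in limma on log2(RPKM + 0.1), but so did 99.3% of all listed genes, so the passing itself is no result about splicing genes. The share that rose, 70.4%, lay near the 63.4% of all listed genes and the 67.2% of annotated genes with a higher mean in L2. The changes were smaller than usual for the table. The median absolute log2 change was 1.59 against 2.33 over all listed genes, and 37.0% of the 27 changed by 2 or more on the log2 scale, against 58.7% of all. For annotated genes these values were 2.06 and 52.1%. The median log2 change over the 27 was 1.46, beside 1.43 over the table. In 26 unigenes NL and L2 libraries did not overlap (97.6% of all listed genes), and the exception was a low unigene annotated as helicase DEAH9. The plot of RPKM by library shows this separation for each unigene.

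**Figure D1:**
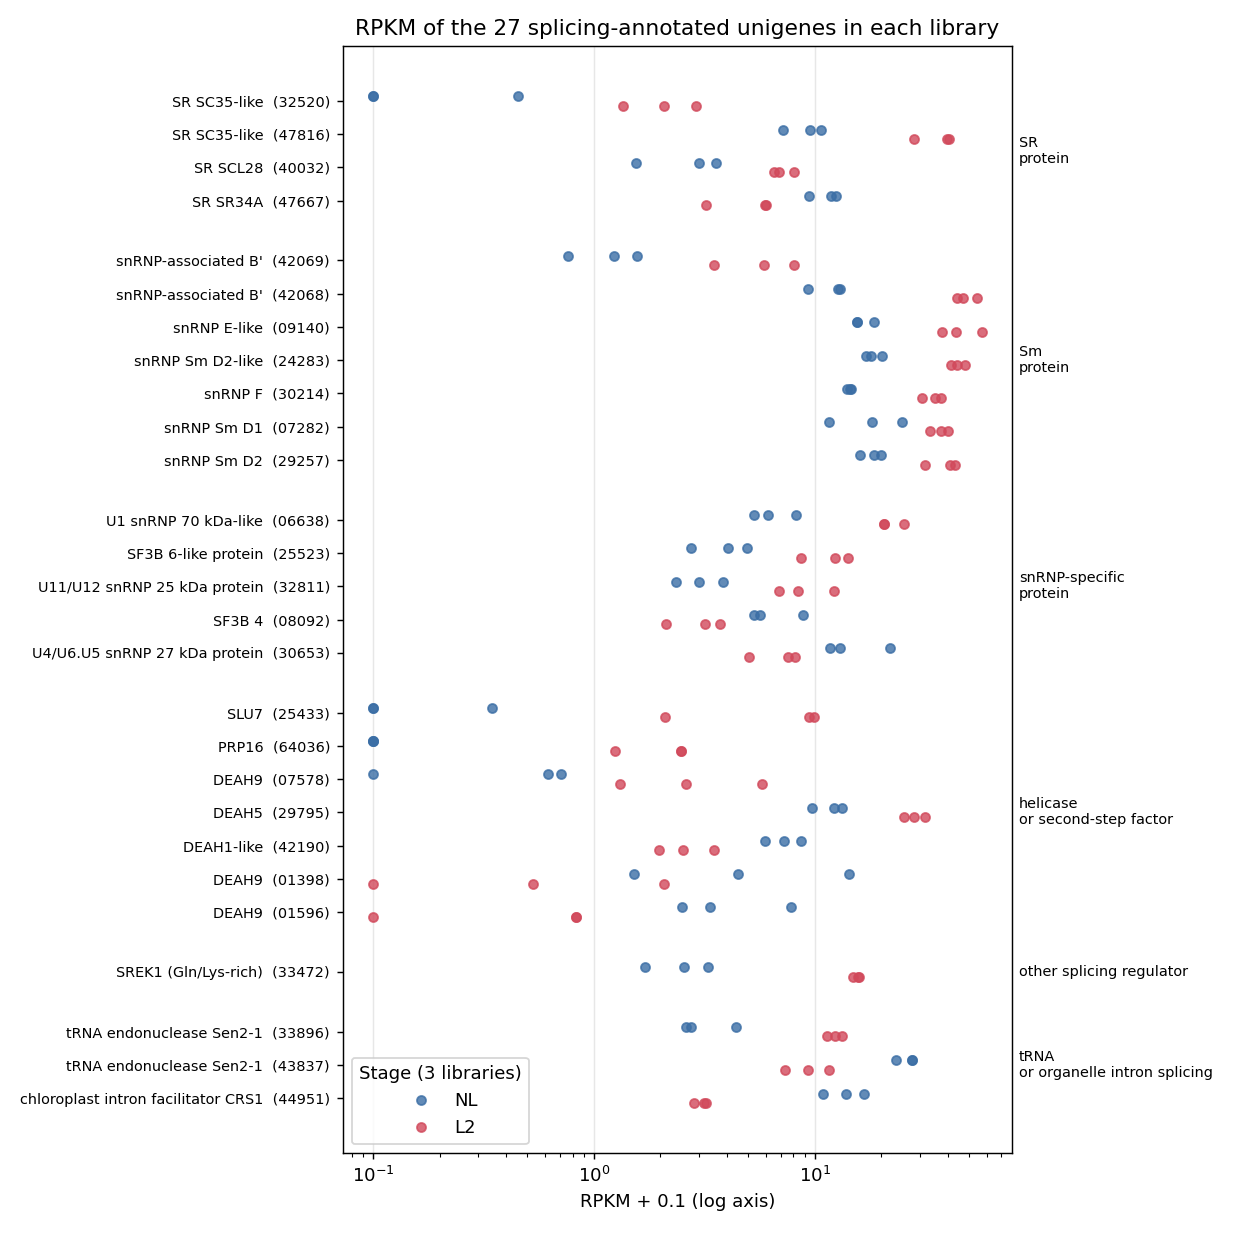
RPKM + 0.1 on a log axis for the 27 unigenes, with 3 NL libraries in blue and 3 L2 libraries in red, grouped by class; the number in brackets is the end of the unigene's identifier. In 26 unigenes the colours do not overlap, all 7 Sm proteins lie to the right in L2 on this scale (Sm D1 turns with DESeq2 factors), and SR34A, SF3B subunit 4, the 27 kDa protein, DEAH1-like, a pair of DEAH9 unigenes, a Sen2-1 unigene and CRS1 lie to the left.

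Of the 4 SR proteins, 3 rose in L2 and 1 fell, beside 63.0% and 36.3% of all listed genes. SC35, known in animals as SRSF2, binds exon sequences that promote splicing, and it was the annotation of a pair of unigenes. The RPKM of Unigene0047816 (SC35-like) was 9.44, 7.11 and 10.5 in the NL libraries and 40.6, 28.0 and 39.7 in the L2 libraries. The lowest L2 library lay well above the highest NL library, and the mean rose from 9.02 ± 1.74 (SD, n = 3) to 36.1 ± 7.02 (SD, n = 3), by limma a log2 change of 1.99 (standard error, SE, 0.24, adjusted p = 1.99e-04). It was the most abundant of the 4 SR unigenes in L2. The other, Unigene0032520, was scarce. It had 2 reads in NL, both in library 2, and 55 in L2, where the RPKM was 1.26, 2.80 and 1.98. Relative to the library totals this is 19.6 times as many (exact 95% interval 5.18 to 166, counting error only), and limma gave an adjusted p of 0.00188. Without NL library 2 it was at least 9.39-fold higher in L2, where 3 reads stand for the empty stage.

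SCL28 belongs to a plant-specific branch of SC35-like proteins. The RPKM of Unigene0040032 (SCL28) was 3.48, 1.45 and 2.90 in NL and 7.98, 6.41 and 6.75 in L2. The stages did not overlap, and limma gave a log2 change of 1.48 (SE 0.41, adjusted p = 0.00896), a call that was lost with the library factors of TMM (in edgeR) and of DESeq2, which scale libraries to the typical listed gene. SR34A, a plant relative of the animal protein SRSF1, went the other way. The RPKM of Unigene0047667 (SR34A) was 12.4, 11.7 and 9.34 in NL and 5.91, 3.13 and 5.85 in L2. Each L2 library was below each NL library, and the mean fell from 11.1 ± 1.60 (SD, n = 3) to 4.96 ± 1.59 (SD, n = 3), by limma a log2 change of -1.20 (SE 0.33, adjusted p = 0.00838). In NL, SR34A thus had the highest mean of the 4 SR unigenes. It lay above SC35-like Unigene0047816 by less than the spread of their libraries, which overlapped. In L2 it lay below SC35-like Unigene0047816 and below SCL28, with no overlap. Summed over these 4 unigenes the level was 22.9 ± 2.37 RPKM (SD, n = 3) in NL and 50.1 ± 8.50 RPKM (SD, n = 3) in L2. SR genes that the authors did not list are missing from this sum.

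The Sm proteins form the ring that loads onto the RNA of the U1, U2, U4 and U5 snRNPs. By limma on RPKM all 7 listed Sm unigenes rose, as did 63.0% of all listed genes, although with DESeq2 factors Sm D1 turned to a log2 change of -0.08. The 7 cover the ring subunits B', D1, D2, E and F, with D2 and B' as a pair of unigenes each. None of the 27 was annotated as D3 or G. The Sm unigenes had mean RPKM of 11.6 to 18.3 in NL and of 34.3 to 48.2 in L2 for all but the short B' unigene. The strongest Sm rise among these 6 was that of Unigene0042068 (protein B'). Its RPKM was 9.19, 12.9 and 12.7 in NL and 46.7, 44.0 and 54.0 in L2, with no overlap and a 4.16-fold higher mean, by limma a log2 change of 2.06 (SE 0.20, adjusted p = 8.75e-05). It had the lowest mean of the 6 in NL and the highest in L2, where its libraries overlapped those of E and D2-like. The second B' unigene, Unigene0042069, is only 389 nt long and had 6 reads in NL and 41 in L2. Its levels were 1.13, 0.666 and 1.46 RPKM in NL and 3.41, 5.76 and 7.97 in L2, by limma with a log2 change of 2.27 (SE 0.51, adjusted p = 0.00361). Where reads fitted both B' unigenes, their split is uncertain.

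The log2 changes of the other Sm subunits lay close together. The RPKM of Unigene0009140 (protein E-like) was 15.4, 18.5 and 15.4 in NL and 43.4, 37.7 and 56.8 in L2, by limma a log2 change of 1.46 (SE 0.20, adjusted p = 4.01e-04). The unigenes of Sm D2-like, F, Sm D1 and Sm D2 had log2 changes of 1.27, 1.26, 1.08 and 1.07, with SEs of 0.16 to 0.28 and an adjusted p below 0.05 in limma for each. The NL libraries agreed most closely for Sm F. The RPKM of Unigene0030214 (protein F) was 14.3, 13.8 and 14.5 in NL, a coefficient of variation of 2.43%, and 35.0, 30.4 and 37.3 in L2, where it was 10.2%. For Sm D1 it was 36.8% in NL and 9.57% in L2, since the RPKM of Unigene0007282 (Sm D1) was 24.8, 11.5 and 18.0 in NL, against 33.0, 37.0 and 40.0 in L2. The stages still did not overlap (adjusted p = 0.00693 from limma). The summed RPKM of the 7 Sm unigenes was 103, 92.8 and 98.1 in the NL libraries and 252, 228 and 281 in the L2 libraries, 2.59 times as high on average.

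**Figure D2:**
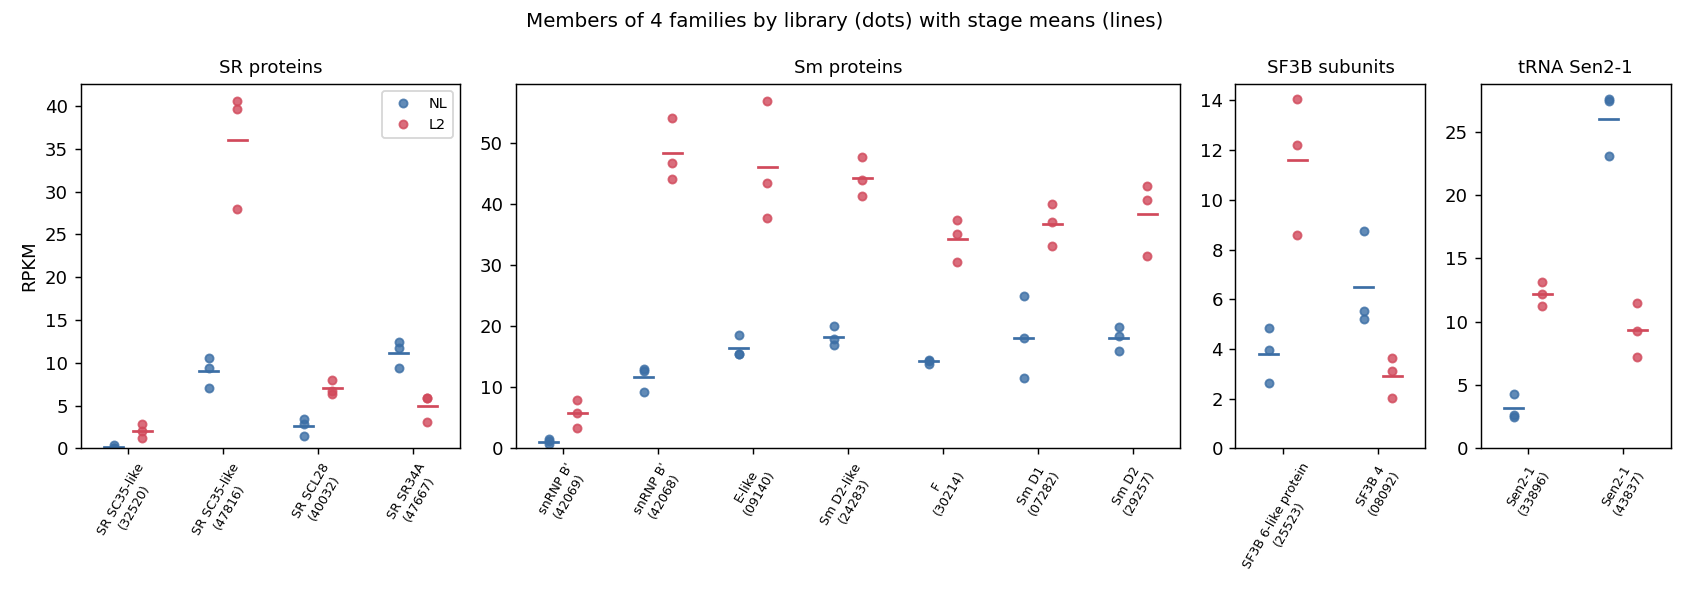
RPKM of single libraries (dots) and stage means (lines) on linear axes for the SR proteins, the Sm proteins, the SF3B subunits and the tRNA endonuclease Sen2-1, with NL in blue and L2 in red. On this scale the Sm unigenes all rise (Sm D1 turns to -0.08 on the log2 scale with DESeq2 factors), whereas each of the other families holds a unigene that rises and one that falls.

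Of the 5 unigenes for proteins of a single snRNP 3 rose and 2 fell, a split near the 63.0% and 36.3% of all listed genes. With TMM factors 1 of the 3 rises was called and with DESeq2 none, beside 38.6% and 25.2% of all listed genes called higher. Both falls were called under each, beside 36.6% and 36.4% called lower. The U1 snRNP finds the start of the intron, and its 70 kDa protein is the contact point of SR proteins. The RPKM of Unigene0006638 (U1 70 kDa-like) was 8.16, 6.01 and 5.22 in NL and 20.5, 20.4 and 25.2 in L2. It thus rose from 6.46 ± 1.52 (SD, n = 3) to 22.1 ± 2.70 (SD, n = 3), by limma a log2 change of 1.77 (SE 0.24, adjusted p = 3.55e-04). The 25 kDa protein of U11/U12, the snRNP of the rare minor class of introns, had lower levels. The RPKM of Unigene0032811 (U11/U12 25 kDa) was 2.89, 2.26 and 3.73 in NL and 8.31, 6.78 and 12.2 in L2, by limma a log2 change of 1.57 (SE 0.36, adjusted p = 0.00381).

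SF3B is the part of the U2 snRNP that holds the branch point of the intron, and its listed subunits went opposite ways by limma on RPKM. Subunit 6 lies at the branch point in the human complex. The RPKM of Unigene0025523 (SF3B subunit 6-like) was 3.95, 2.65 and 4.85 in NL and 12.2, 8.58 and 14.1 in L2, by limma a log2 change of 1.59 (SE 0.34, adjusted p = 0.00274), and this call was lost with TMM factors (0.72) and DESeq2 (0.49). Subunit 4 binds the precursor RNA just before the branch point. The RPKM of Unigene0008092 (SF3B subunit 4) was 8.76, 5.19 and 5.54 in NL and 2.03, 3.63 and 3.10 in L2, by limma a log2 change of -1.13 (SE 0.39, adjusted p = 0.0217). This fall no longer passed without NL library 1 (log2 change -0.89, adjusted p = 0.0813) or without L2 library 1 (-0.89, adjusted p = 0.0555), and its adjusted p ranged from 3.32e-08 to 0.0813 over all alternatives.

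U4/U6.U5 is the tri-snRNP that joins last and brings the catalytic RNA. Its 27 kDa protein fell. The RPKM of Unigene0030653 (U4/U6.U5 27 kDa) was 11.6, 12.9 and 21.8 in NL and 4.95, 7.43 and 8.05 in L2. The stages did not overlap although NL library 3 stood high, and limma gave a log2 change of -1.14 (SE 0.32, adjusted p = 0.00981).

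The helicases use ATP to drive the spliceosome from one state to the next, and SLU7 works at the second step, in the choice of the intron's end. Of these 7 unigenes 4 rose and 3 fell, near the 63.0% and 36.3% of all listed genes. With TMM factors and with DESeq2, 2 of the rises and all 3 falls were also called. Of all listed genes 38.6% and 25.2% were called higher under these, and 36.6% and 36.4% lower. The pair with the largest log2 changes of all 27, SLU7 and PRP16, was among the 7. DEAH5, the plant counterpart of yeast Prp22, which releases the spliced RNA, was the most abundant. The RPKM of Unigene0029795 (DEAH5) was 9.57, 13.2 and 12.1 in NL and 28.1, 25.2 and 31.6 in L2. Its mean rose 2.43-fold with no overlap, by limma a log2 change of 1.28 (SE 0.20, adjusted p = 7.15e-04), but the call was lost with TMM factors and DESeq2. DEAH1 is related to yeast Prp2, which starts the first step, and carried the symbol mog-4 of the worm gene. The RPKM of Unigene0042190 (DEAH1-like) was 5.87, 7.15 and 8.54 in NL and 1.87, 2.43 and 3.39 in L2, by limma a log2 change of -1.47 (SE 0.37, adjusted p = 0.00554).

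The unigenes annotated as SLU7 and as PRP16, which acts between the steps, were close to absent from NL. They are 1058 and 1161 nt long, against 3320 nt for DEAH5. Whether other unigenes of these genes, outside the listed ones, were present in NL is not shown. Unigene0025433 (SLU7) had 1 read in NL, in library 2, and 133 reads in L2, with RPKM values of 2.01, 9.77 and 9.27. L2 library 1 was thus far below the others, yet above every NL library. Relative to the library totals there were 94.9 times as many in L2 (exact 95% interval 16.7 to 3776, counting error only). The interval leaves out the spread between the L2 libraries. The adjusted p from limma was 6.39e-04, and without NL library 2 the rise was at least 22.7-fold. Unigene0064036 (PRP16) had no read in NL and 42 reads in L2, with an RPKM of 1.14, 2.37 and 2.37. With 3 reads in place of none it was at least 9.99-fold higher in L2, and limma gave an adjusted p of 1.19e-04.

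The annotation DEAH9, a helicase of the same family, was shared by 3 short unigenes of 402 to 850 nt that did not move together, and all 3 had few reads. Unigene0001398 (DEAH9) was covered by 33 NL reads and 7 L2 reads, with an RPKM of 4.39, 14.2 and 1.42 in NL and 1.98, 0 and 0.428 in L2. It is the unigene whose stages overlapped, since L2 library 1 was above NL library 3 (limma log2 change -3.26, SE 1.22, adjusted p = 0.0296). This call was lost with a pseudocount of 0.01 and when NL library 1, NL library 2, L2 library 2 or L2 library 3 was left out, with log2 changes of -4.32 to -2.13 over the libraries left out. Unigene0001596 (DEAH9) was covered by 27 NL reads and 4 L2 reads, with an RPKM of 3.27, 7.67 and 2.41 in NL and of 0, 0.729 and 0.728 in L2. It fell, by limma with a log2 change of -3.30 (SE 0.93, adjusted p = 0.00952). Unigene0007578 (DEAH9) had 4 reads in NL and 50 in L2, with an RPKM of 0.519, 0.610 and 0 in NL and 2.50, 1.22 and 5.67 in L2. It rose, by limma with a log2 change of 2.94 (SE 0.91, adjusted p = 0.0143), but it did not pass without L2 library 1 or L2 library 3, with a pseudocount of 0.01, or with TMM or DESeq2 factors (adjusted p = 0.00651 to 0.138 over all alternatives).

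SREK1, the splicing regulatory glutamine/lysine-rich protein, is known in humans as a protein that alters the activity of SR proteins. The RPKM of Unigene0033472 (glutamine/lysine-rich protein 1) was 1.61, 3.19 and 2.45 in NL and 15.7, 15.6 and 14.8 in L2. The L2 libraries differed little from one another, with a coefficient of variation of 3.42%. The mean rose 6.36-fold, by limma a log2 change of 2.67 (SE 0.32, adjusted p = 2.05e-04), the largest rise among unigenes with at least 1 RPKM in both stages.

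The 3 unigenes outside pre-mRNA splicing were a pair for the tRNA endonuclease and CRS1. Sen2 is the subunit that cuts introns out of precursor tRNA, without a spliceosome. The RPKM of Unigene0043837 (Sen2-1 isoform X2) was 23.1, 27.5 and 27.4 in NL and 11.5, 9.25 and 7.21 in L2, by limma a log2 change of -1.49 (SE 0.23, adjusted p = 6.08e-04). Unigene0033896 (Sen2-1) rose in turn, with an RPKM of 2.50, 2.64 and 4.30 in NL and 11.2, 12.2 and 13.2 in L2, by limma a log2 change of 1.96 (SE 0.31, adjusted p = 7.05e-04). The falling unigene held 86.4% to 91.2% of the Sen2-1 RPKM in the NL libraries and 35.4% to 50.6% in the L2 libraries. The sum of the pair was 29.2 ± 3.18 RPKM (SD, n = 3) in NL and 21.5 ± 1.15 RPKM (SD, n = 3) in L2. Whether they are a pair of genes or forms of one gene is not given in the sources used here.

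CRS1 helps to splice a group II intron inside the chloroplast, as known from maize. The RPKM of Unigene0044951 (CRS1) was 13.7, 10.8 and 16.6 in NL and 3.06, 2.75 and 3.12 in L2. The mean was 4.61-fold lower in L2, by limma a log2 change of -2.15 (SE 0.28, adjusted p = 2.98e-04). It was the strongest fall among unigenes with at least 1 RPKM in both stages, beside the fall of all 22 green tissue markers given above.

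A ratio of 2 unigenes within a library does not depend on how the libraries are scaled. The ratios given here were chosen after the values had been seen and carry no test. Where a unigene that rose is set against one that fell, the ratio had to shift, since each was listed as changed. The SR34A member, Unigene0047667, made up 49.0%, 56.7% and 41.0% of the summed RPKM of the 4 SR members in NL. In the L2 libraries it made up 10.6%, 7.76% and 10.8%. Any SR gene that the authors did not list is missing from this sum, so these are not shares of all SR RNA. Another unigene with the symbol SR34A lies outside the rule (Unigene0047258). With it added, the SR34A pair made up 60.5%, 69.8% and 58.0% in NL and 32.7%, 36.1% and 35.1% in L2, and the RPKM of the pair summed to 19.6 ± 1.03 (SD, n = 3) in NL and 23.8 ± 2.59 (SD, n = 3) in L2. The level of SF3B subunit 6 was 0.450, 0.510 and 0.875 of that of subunit 4 in NL, and 6.02, 2.37 and 4.54 times as high in L2. U1 70 kDa stood to the tri-snRNP 27 kDa protein at 0.703, 0.467 and 0.240 in NL and at 4.15, 2.75 and 3.13 in L2. Both of these orders were thus opposite in the stages, in each library. DEAH5 was above DEAH1-like in both stages, by 1.42 to 1.85 times in NL and by at least 9.31 times in L2. Within the Sm ring the longer B' unigene was at 0.0996, 0.163 and 0.151 of the summed D1, D2, E and F level in NL and at 0.231, 0.247 and 0.247 in L2.

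**Figure D3:**
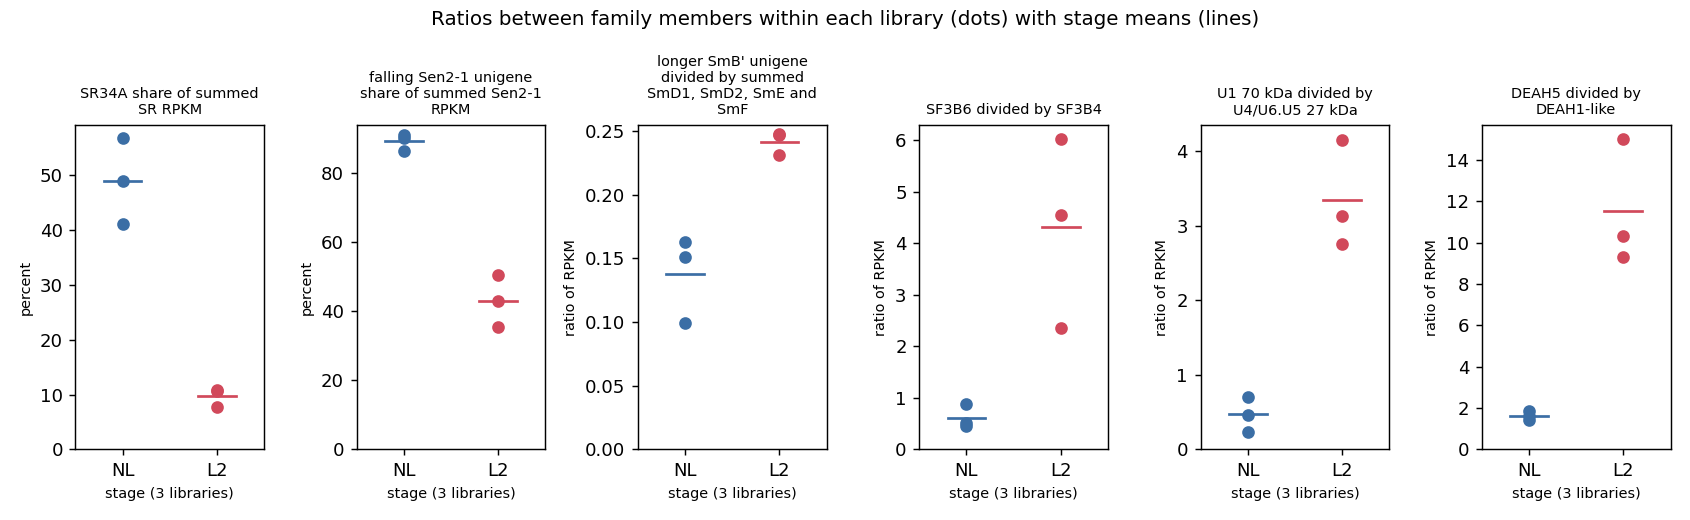
Ratios between unigenes within each library (dots) and their stage means (lines), as shares in percent or as ratios of RPKM, with NL in blue and L2 in red. No ratio overlaps between the stages, SR34A being the member Unigene0047667 alone. For a riser set against a faller a shift follows from the choice of unigenes listed as changed. The ratios of SF3B subunit 6 to subunit 4 and of U1 70 kDa to the 27 kDa protein cross from below 1 in NL to above 1 in L2.

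How many of the rises are counted depends on the scaling of the libraries. RPKM divides by the library total, whereas the factors of TMM and DESeq2 take the typical gene as constant, and here each listed gene was called different. Relative to library totals these factors scale L2 down against NL by 0.85 and 1.08 on the log2 scale. With edgeR and TMM factors 8 members were called higher (38.6% of all listed genes) and 8 lower (36.6%), and with DESeq2 7 were called higher (25.2%) and 8 lower (36.4%). The rises that passed under both were those of both SC35-like unigenes, the longer B' unigene, SLU7, PRP16, glutamine/lysine-rich protein 1 and Sen2-1 Unigene0033896. Of the 7 Sm unigenes 1 passed under either, and the 6 others passed under neither. The Sm unigenes had a median log2 change of 1.27 in limma, beside 1.43 for the table. The short B' unigene kept a log2 change of 1.44 with TMM factors and 1.26 with DESeq2, above those of the longer one (1.20 and 0.97), and lost its call with 6 reads in NL.

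**Figure D4:**
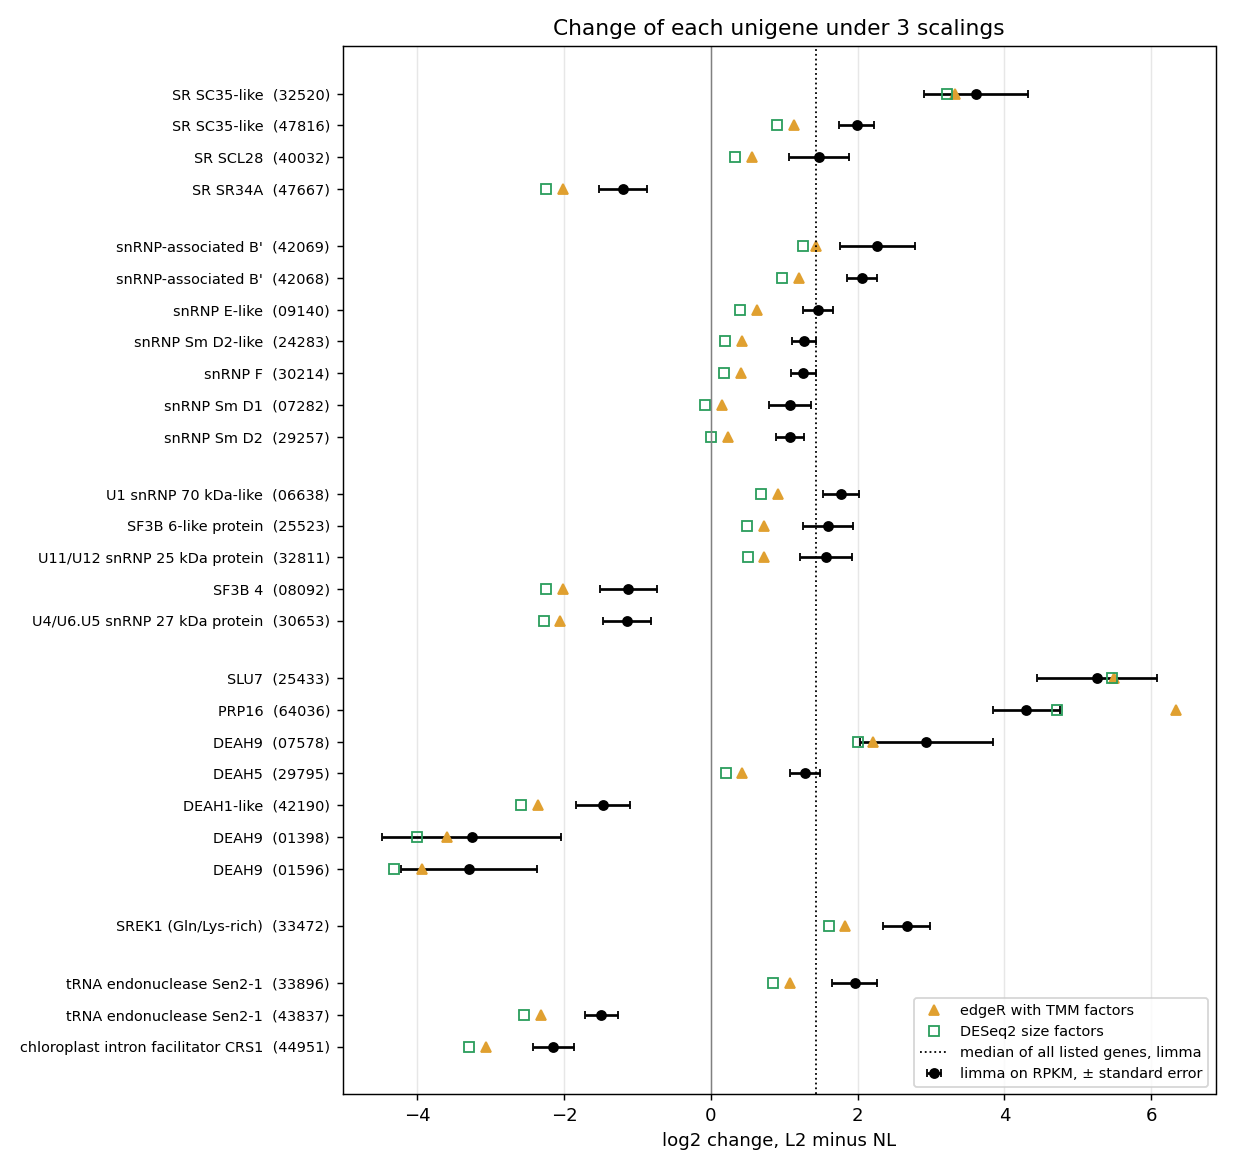
Log2 change of L2 against NL for the 27 unigenes from limma on RPKM (black, with standard error) and with TMM (triangles) and DESeq2 factors (open squares). The dotted line is the median of all listed genes in limma, 1.43, and the Sm unigenes other than B' lie close to it or below it, with the squares of Sm D1 and Sm D2 near 0.

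The members shared some features that the rule did not use. The KEGG pathway spliceosome was assigned to 16 of the 27, among them all 7 Sm unigenes and none of the 3 for other kinds of splicing. The unigenes were 389 to 4518 nt long with a median of 1369 nt, against 1362 nt over the table. Their median level was 6.66 RPKM in NL and 9.08 RPKM in L2, against 4.13 and 6.39 over the table. Libraries of a stage differed about as much as for other genes, with a median coefficient of variation of 26.9% in NL and 22.9% in L2, against 29.3% and 28.8%. The median over the Sm unigenes was lower, at 10.9% and 10.7%, and their median level was higher, at 16.4 RPKM in NL and 38.4 RPKM in L2. Sm D1 in NL (36.8%) and the short B' unigene (36.8% in NL and 39.9% in L2) lay above the medians of the table.

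Other genes that act on precursor RNA were taken from a list of annotations and from the KEGG pathway spliceosome, which gave 26 unigenes outside the rule. Of these 17 rose, 8 fell and 1 did not pass in limma, near the 63.0% and 36.3% of all listed genes. With TMM factors 2 were called higher and 8 lower (38.6% and 36.6% of all listed genes), and with DESeq2 1 and 8 (25.2% and 36.4%). The KEGG pathway includes heat shock 70 proteins, which are chaperones of many processes, and they were 8 of the 26, with 3 that rose, 4 that fell and the 1 that did not pass. Of the other 18 unigenes 14 rose and 4 fell, with a median log2 change of 1.23, beside 1.43 over the table. The falls were also called with TMM factors and DESeq2, but of the rises only 2 and 1 were, with medians of 0.40 and 0.17. Unigene0047258 (RRM_1 domain-containing protein) carries the symbol SR34A, as the falling SR34A unigene does, but it rose, from 8.48 ± 1.00 (SD, n = 3) to 18.9 ± 1.29 RPKM (SD, n = 3), by limma a log2 change of 1.15 (SE 0.20, adjusted p = 0.00113). Its description holds no word of the rule, and it passed neither with TMM nor with DESeq2 factors, where its log2 change was 0.30 and 0.07.

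Of the 4 falls among these 18, a pair belonged to polypyrimidine tract-binding proteins, which in animals often repress exons. The log2 changes of Unigene0043275 and Unigene0039354 (polypyrimidine tract-binding) were -1.39 and -1.13 (limma adjusted p = 0.00897 and 0.0475), while Unigene0044720, of like annotation, had the largest rise of the list, 2.76 (limma adjusted p = 0.00675), which passed with TMM factors and not with DESeq2. The exon junction factor eIF4A-3 marks spliced RNA. Unigene0053709 (eukaryotic initiation factor 4A-3) fell from 22.4 ± 0.921 (SD, n = 3) to 9.70 ± 2.05 RPKM (SD, n = 3), by limma with a log2 change of -1.22 (SE 0.21, adjusted p = 0.00113). Among glycine-rich RNA-binding proteins Unigene0028917 (glycine-rich 4) fell with a log2 change of -1.66 in limma and passed under both other scalings. Unigene0015811 (glycine-rich 2) had one of 1.38 and passed in limma, but not with TMM factors (0.53) or DESeq2 (0.30). The hnRNP proteins coat new RNA, and Unigene0041305 (hnRNP 1) rose from 8.26 ± 1.85 (SD, n = 3) to 35.8 ± 2.50 RPKM (SD, n = 3), by limma with a log2 change of 2.13 (SE 0.22, adjusted p = 1.01e-04). Unigene0048230, of the same annotation, had one of 1.20 (limma adjusted p = 5.57e-04), a call lost with TMM factors (0.34) and DESeq2 (0.12). BUD31 is a spliceosome component, and Unigene0046682 (BUD31 homolog 2) rose at a low level, with a log2 change of 2.44 (limma adjusted p = 0.00281), and this call was lost with TMM factors (1.80) and DESeq2 (1.62). Among the heat shock proteins the largest changes were falls, with log2 changes of -3.88 for Unigene0035778 and -2.48 for Unigene0035231, and both passed in limma.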

How the data were processed

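According to the study's methods, the authors assembled clean reads with Trinity and mapped them to the unigenes with Bowtie2 at default parameters. The tool for counting is not given in the sources used here. The authors deposited an RPKM value for each library and the mean RPKM of each stage, and per stage a mean count of reads, an estimated count in that it need not be whole. Columns with the authors' log2 ratio, p-value and FDR were not used. By the study's methods the table keeps genes whose FDR did not exceed 0.05 and whose log2 ratio was 1 or more in either direction.

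Reads per library, library totals and unigene lengths were recovered from RPKM and mean counts, and all 59302 values above 0 came out whole within 0.05. Stages were compared with limma 3.58.1 (trend, two-sided) in R 4.3.3 on log2(RPKM + 0.1), with Benjamini-Hochberg adjustment over all 11051 genes. A log2 change on this scale can understate that of low genes, as for SLU7 (5.26, against 6.25 in edgeR with library totals). For the low DEAH9 Unigene0001398 it was instead the larger (-3.26 against -2.82). The genes were called on these libraries, so the adjusted p is not independent evidence. Alternatives were edgeR 4.0.16 (quasi-likelihood, TMM factors or library totals) and DESeq2 1.42.0 on recovered reads, upper quartile scaling, pseudocounts of 1 and 0.01, genes reaching 1 RPKM in 3 or more libraries, a block for the replicate number, and fits without 1 library. The fits were tested on simulated data in which most genes were constant. Here every listed gene was called different, so that test does not bear on the choice of scaling. Members and lists were chosen with earlier results of these data known. The rule for named genes took every SR protein, in each core class the 3 unigenes of highest mean RPKM and the 3 of largest absolute log2 change, every member of the less frequent direction, and members of 1 annotation that moved in opposite directions. Classes of 6 or fewer could be named in full, and the remaining Sm unigenes were added so that every member is accounted for. The ratios between unigenes were chosen after their values were seen. Exact intervals are Clopper-Pearson.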

Additional observations from a re-analysis of the deposited data

How the results depend on the processing

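Over the 14 alternative fits, 13 of the 27 members passed in the same direction in each, 7 of them higher in L2 and 6 lower. The matching share over all listed genes was not computed, so this count is no result about splicing genes. The counts called higher fell from 19 to 7 with DESeq2 and to 8 with TMM factors, and to 7 at an absolute log2 change of at least 2, which left 3 lower. With upper quartile scaling 18 were higher and 8 lower. Leaving out 1 library gave 18 to 19 higher and 6 to 8 lower. The median log2 change of all members, 1.46, was 0.33 with DESeq2, 0.56 with TMM factors, 0.97 with upper quartile scaling and 1.23 with a pseudocount of 1. For SR proteins it was 1.73, and 0.62, 0.85, 1.25 and 1.31 under these settings. For core genes it was 1.37, and 0.30 with DESeq2, 0.53 with TMM factors and 0.88 with upper quartile scaling. Leaving out 1 library gave medians of 1.30 to 1.54 for all members, 1.47 to 1.88 for SR proteins and 1.29 to 1.48 for core genes. The share of members higher in L2, 70.4%, was 66.7% with DESeq2, 71.4% among members that reached 1 RPKM on average in NL and in L2, and 75% without tRNA and organelle splicing genes. The log2 change of Unigene0007282 (Sm D1) was 1.08 and reversed with DESeq2, to -0.0764.

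The deviations of same-numbered NL and L2 libraries correlated at 0.02 to 0.06 across genes, and those of differently numbered libraries at -0.05 to 0.01. Same-numbered libraries thus lay highest, but all values were small, and whether the numbers pair the samples is not shown. With the replicate number as a block 19 members were called higher and 8 lower. At this depth, the unigenes with under 10 reads in a stage rest on few counts.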
